A study of Mus musculus with 19 samples.

Results

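The 7 genes described here encode a family of peptide receptors, the proteins that set their ligand preference, and some of their peptides. They are Calcr, Calcrl, Ramp1, Ramp2, Ramp3, Calca and Calcb, taken by name from the 52636 mouse genes of the deposited count table, and all 7 were found there. Calcr encodes the calcitonin receptor and Calcrl the calcitonin receptor-like receptor, both class B G protein-coupled receptors, and the Ramp genes encode the receptor activity-modifying proteins (RAMPs), single-pass membrane partners of these receptors. Calcr alone binds calcitonin, and Calcr with a RAMP forms receptors for amylin, a pancreatic satiety hormone. Calcrl needs a RAMP: with Ramp1 it forms the receptor for calcitonin gene-related peptide (CGRP), and with Ramp2 or Ramp3 it forms receptors for adrenomedullin. Calca yields calcitonin or alpha-CGRP by alternative splicing, which counts per gene cannot separate, and Calcb yields beta-CGRP.

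The cells came from the lateral hypothalamic area (LHA), a brain region of feeding and arousal, of 7 males, 6 to 8 weeks old, of the genotype Agrp-IRES-Cre x Ai9, which carry a red fluorescent reporter in the AGRP neurons of the arcuate nucleus. Per the labels, the fluorescent axons of those neurons guided the dissection, and non-fluorescent cell bodies were picked by hand into 19 plates of 96 wells. All plates belong to 1 group, with the same genotype and no treatment or control group, so the comparisons here are between classes of cells. Each plate is 1 sample. Which mice a plate holds is not labelled, so p-values over plates measure the spread between plates and may be too small.

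Of 1612 wells labelled LHA, 1534 had at least 1000 detected genes and were kept. A cell was put in the Hcrt class or the Pmch class when that gene, which encodes the orexin or the melanin-concentrating hormone precursor, held at least 1% of its counts. Cells with neither were put in the GABA class with at least 5 counts of Gad1 and Gad2 together, the genes of the enzymes that make GABA, and in the other class without. This gave 327 GABA cells, 71 other cells, 68 Pmch cells and 1065 Hcrt cells, and 3 cells that passed both peptide limits were left out. A cell held 3608 to 263078 unique molecular identifiers (UMIs), with class medians of 24486 in GABA, 24969 in other, 59063 in Pmch and 45722 in Hcrt cells. All 8 pan-neuronal markers were found in each class, at a summed 7730 CPM (counts scaled so that each sum of mouse gene counts has the same total) in GABA, 7090 in other, 8731 in Pmch and 7415 in Hcrt cells. The summed GABA markers (Gad1, Gad2 and Slc32a1, the vesicular GABA transporter) were at 1326 CPM in the GABA class, 21.0 in the other class, 471 in the Pmch class and 47.4 in the Hcrt class. By pan-neuronal and glial markers, 24 kept cells did not pass as neurons, of which 2 were GABA, 9 other, 0 Pmch and 13 Hcrt cells. The 19 plates used 4 sets of 96 well barcodes, so each barcode recurred on 4 to 5 plates of a single sequencing run.

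Calca and Calcb lie on opposite strands of mouse chromosome 7 and are near-identical over the stretch that encodes CGRP, so it matters whether their reads can be told apart. The 170 bases of coding sequence below come from the GENCODE transcripts (build GRCm38), bases 200 to 369 of the Calca coding sequence and 203 to 372 of the Calcb coding sequence, written 5′ to 3′ with the 11 differing bases in capitals.
Calca: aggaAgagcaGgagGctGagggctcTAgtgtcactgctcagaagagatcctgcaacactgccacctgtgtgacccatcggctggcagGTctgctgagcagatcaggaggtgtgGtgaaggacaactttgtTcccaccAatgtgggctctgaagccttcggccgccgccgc
Calcb: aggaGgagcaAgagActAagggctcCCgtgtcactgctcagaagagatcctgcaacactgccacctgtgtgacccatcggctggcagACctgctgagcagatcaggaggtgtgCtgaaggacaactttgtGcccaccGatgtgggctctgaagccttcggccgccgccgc
The stretches were 93.5% identical, and the longest run shared by any transcripts of the pair was 61 bases. The cDNA read was 125 bases long, and 0 of 1651 such windows of Calca transcripts and 0 of 1260 of Calcb transcripts occurred in the other gene. The longest runs shared between members of the RAMP family were 10 to 14 bases, and Calcr and Calcrl shared at most 20.

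In the annotation (GENCODE M21, GRCm38), Calcr (ENSMUSG00000023964) lies on the minus strand at chr6:3685680-3764714 and Calcrl (ENSMUSG00000059588) on the minus strand at chr2:84330626-84425411. Ramp1 (ENSMUSG00000034353) lies at chr1:91179822-91225196, Ramp2 (ENSMUSG00000001240) at chr11:101246028-101259546 and Ramp3 (ENSMUSG00000041046) at chr11:6658521-6677475, all on the plus strand. Calca (ENSMUSG00000030669) spans chr7:114631478-114636357 on the minus strand and Calcb (ENSMUSG00000030666) spans chr7:114718643-114723365 on the plus strand. Ramp2 overlaps Vps25 on the same strand over 5840 bases, and how reads there were shared out is not given in the sources used here. Vps25 had 226 UMIs in kept cells. The genes inside or opposite the others (Mir653 and Mir489 in Calcr, the pseudogene Gm11978 beside Ramp3) had 0 UMIs.

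The 7 genes were divided between the classes. Calcr was found in GABA cells, Ramp1 in Pmch cells and, at a lower level, in Hcrt cells, and Calcb in Hcrt cells. Most UMIs of Ramp3 were in Hcrt cells, while Ramp2 was thinly spread and Calcrl was almost not detected. CPM values below are for UMIs summed over the cells of a class on a plate with at least 3 such cells (16 plates for GABA, 10 for other, 13 for Pmch and 19 for Hcrt). They are not scaled by gene length, so levels are compared between classes and not between genes. In such sums, fewer cells with a gene and less RNA per cell cannot be told apart, so the share of cells with a UMI is given beside each level.

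**Figure D1:**
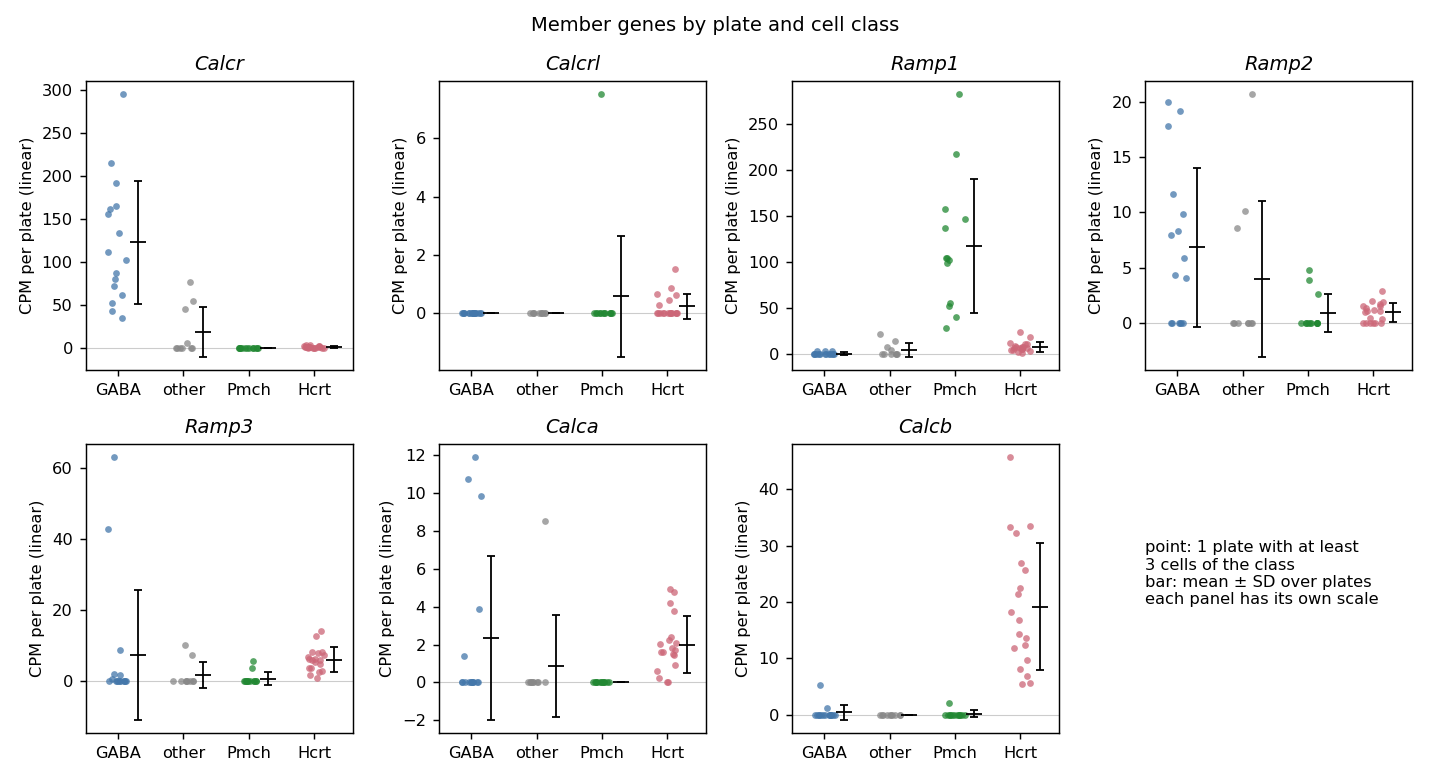
CPM (linear axis, own scale in each panel) of the 7 genes; each point is 1 plate with at least 3 cells of the class, and bars are the mean ± SD over plates. Every GABA point of Calcr is at or above 34.4 CPM and every Hcrt point at or below 3.18, every Pmch point of Ramp1 is at or above 28.7 against at most 24.1 for Hcrt, and all 19 Hcrt points of Calcb are at or above 5.35.

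Calcr was the receptor gene of the family found in these cells, and 891 of its 981 UMIs (90.8%) were in GABA cells. It ran from 34.4 CPM on the lowest plate through a median of 107.1 to 295 CPM on the highest in the GABA class. In the other class 6 of 10 plates had no Calcr count and the highest had 77.0 CPM, in the Pmch class all 13 plates were at 0, and in the Hcrt class the plates ran from 0 through a median of 0.305 to 3.18 CPM. Plates of the GABA class thus lay above all Pmch and Hcrt plates, and overlapped with those of the other class. The means were 123 ± 71.5 CPM in GABA, 18.1 ± 29.0 in other and 0.891 ± 1.06 in Hcrt cells (SD, n = 16, 10 and 19 plates).

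The fit across 16103 genes placed Calcr 6.26 ± 0.41 (SE) higher in GABA than in Hcrt cells on the log2 scale (edgeR quasi-likelihood test with plate as a block, Benjamini-Hochberg adjusted p = 4.0e-20, threshold 0.05), with GABA higher on 16 of 16 plates. In that comparison 8.48% of all genes tested were called higher and 15.1% lower, with a median log2 change of -0.15 over all genes. Calcr was 2.47 ± 0.50 higher in GABA than in other cells (edgeR adjusted p = 0.000806, higher on 9 of 10 plates), a comparison in which 3.03% of genes were called higher and 2.52% lower. Against the Pmch class, where no Calcr UMI was found in 68 cells, GABA cells were at least 140.5-fold higher by a floor of 3 UMIs over the class (edgeR adjusted p = 3.7e-14, higher on 12 of 12 plates, with 12.2% of genes called higher and 8.1% lower). Other cells were 3.79 ± 0.61 above Hcrt cells (edgeR adjusted p = 2.9e-06), but in the plate values they were higher on 4 and lower on 4 of 10 plates, so this call rests on few plates. The order was therefore GABA, other, Hcrt and Pmch, and Pmch and Hcrt, the last neighbours, were not separated (edgeR adjusted p = 0.0911). The call against the other class was lost when only sums of at least 5 cells were used (log2 change 1.54, edgeR adjusted p = 0.0816) and with a peptide limit of 0.2% in place of 1% (1.98, adjusted p = 0.178).

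Within the GABA class Calcr was present in a minority of cells, at levels well above a single count. A Calcr UMI was found in 118 of 327 GABA cells (36.1%, exact 95% interval 30.9 to 41.6), 8 of 71 other cells (11.3%, 4.99 to 21.0), 0 of 68 Pmch cells (which allows up to 4.41% of cells with a UMI by a floor of 3 cells) and 22 of 1065 Hcrt cells (2.07%, 1.30 to 3.11). For thinning, here and below, cells with fewer than 18000 UMIs were left out and the rest were reduced to that number. This kept 253 GABA, 56 other, 67 Pmch and 1003 Hcrt cells, so thinned shares are not over the same cells as full shares. The thinned shares with Calcr were 34.4% in GABA, 11.1% in other, 0 in Pmch and 0.935% in Hcrt cells. Of the GABA cells 209 had none, 27 had 1 or 2 and 91 had at least 3 Calcr UMIs, and the richest had 45. The 10 richest cells held 27.4% of the class's Calcr UMIs. On the 13 plates with at least 10 GABA cells, the share with Calcr ran from 12.5% through a median of 40.0% to 56.5% (mean 37.4% ± 12.6, SD).

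A few Calcr cells lay outside the GABA class. The 8 other cells with Calcr held 41 UMIs, 5 of them had at least 3, and none had a UMI of Slc32a1, while 5 had Slc17a6, the vesicular glutamate transporter. The 22 Hcrt cells with Calcr held 48 UMIs, and 17 of them had a single UMI. Among these 22 cells 20 had Slc17a6 and 7 had Slc32a1, and their median Hcrt share of counts was 12.04%, against 13.5% in the whole class.

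**Figure D2:**
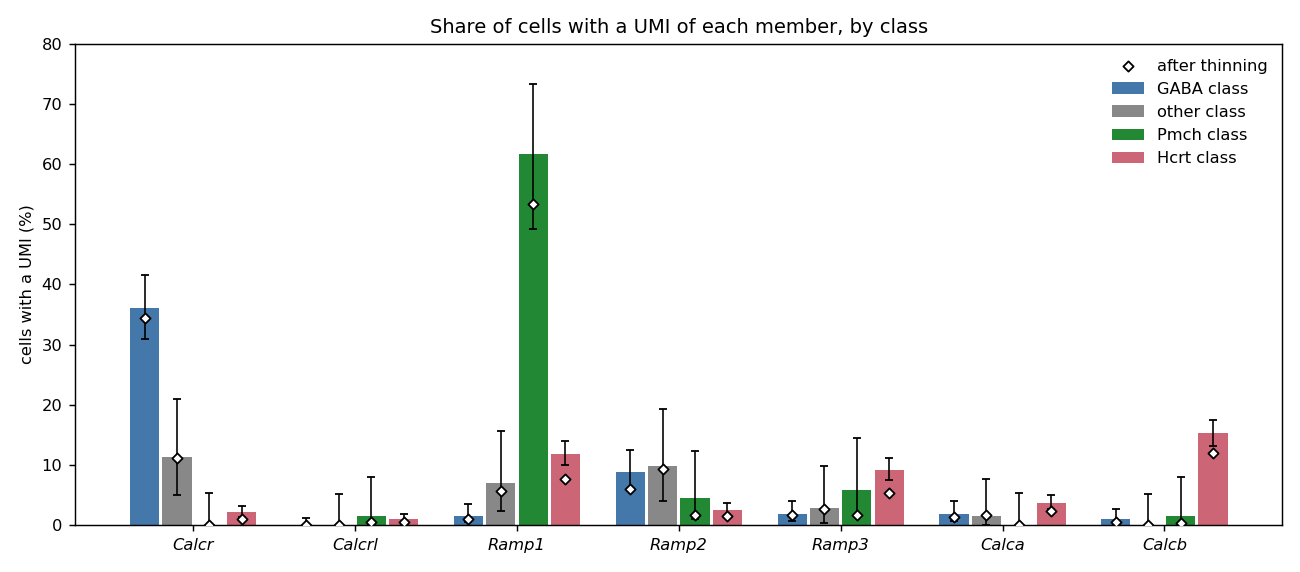
Share of cells of each class (percent, linear axis from 0) with at least 1 UMI of each gene, with exact 95% intervals for counting error. Diamonds give the share after thinning to 18000 UMIs per cell, with shallower cells left out. Calcr stands out in GABA cells (36.1%), Ramp1 in Pmch cells (61.8%) and Calcb in Hcrt cells (15.2%), and the thinned shares keep these 3 patterns.

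Calcrl, the receptor core for CGRP and adrenomedullin, was found in 11 Hcrt cells with 14 UMIs and in 1 Pmch cell with 2 UMIs. No UMI was found in 327 GABA cells, which allows a share of cells with a UMI of up to 0.917% by a floor of 3 cells, or in 71 other cells, which allows up to 4.23%. The gene was under the limit of 30 UMIs for the fit and was not tested. No cell had more than 2 Calcrl UMIs, so its distribution over classes could not be resolved at this depth.

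Ramp1, the CGRP receptor's partner protein, was the RAMP of the Pmch class. Its plates ran from 28.7 through a median of 104.5 to 283 CPM in Pmch cells. In the GABA class 11 of 16 plates were at 0 and the highest had 4.26 CPM, in the other class 6 of 10 plates were at 0 and the highest had 22.3 CPM, and in the Hcrt class the plates ran from 2.13 through 7.05 to 24.1 CPM. All Pmch plates therefore lay above all plates of the other 3 classes. The means were 0.817 ± 1.54 CPM in GABA, 5.003 ± 7.80 in other, 118 ± 72.5 in Pmch and 8.56 ± 5.38 in Hcrt cells (SD, n = 16, 10, 13 and 19 plates).

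Ramp1 was 3.71 ± 0.32 (log2, SE) higher in Pmch than in Hcrt cells (edgeR adjusted p = 3.7e-16, higher on 13 of 13 plates), where 6.5% of genes tested were called higher and 15.4% lower around a median of -0.37. It fell by 7.00 ± 0.47 in GABA relative to Pmch cells (edgeR adjusted p = 3.3e-21, lower on 12 of 12 plates) and by 3.28 ± 0.48 relative to Hcrt cells (edgeR adjusted p = 4.8e-08, lower on 16 of 16 plates). Other cells were 4.35 ± 0.53 below Pmch cells (edgeR log2 change -4.35, adjusted p = 1.1e-09, lower on 8 of 8 plates), with 6.47% of genes called higher and 6.79% lower in that comparison. Hcrt and other cells, neighbours in the order, were not separated (edgeR log2 change -0.63 for other over Hcrt, adjusted p = 0.509, where 4.55% of genes were called higher and 11.3% lower). The GABA class was called lower than the other class (edgeR log2 change -2.65 ± 0.75, adjusted p = 0.022), but only 9 and 12 UMIs stood behind the pair. That call was lost among neurons alone (log2 change -1.90, adjusted p = 0.224) and without plate replicate 3, 9 or 14, where the adjusted p reached 0.202.

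The share of cells with Ramp1 was 5 of 327 (1.53%) in GABA, 5 of 71 (7.04%) in other, 42 of 68 (61.8%, exact interval 49.2 to 73.3) in Pmch and 126 of 1065 (11.8%, 9.95 to 13.9) in Hcrt cells. After thinning the shares were 1.01% in GABA, 5.71% in other, 53.4% in Pmch and 7.71% in Hcrt cells. Among Pmch cells Ramp1 was uneven: 26 cells had none, 36 had at least 3 UMIs, 10 had at least 20 and the richest had 79, and the 10 richest held 63.3% of the UMIs. Among Hcrt cells the richest had 16 UMIs and 66 had at least 3. Over all 1534 kept cells the genes whose level most resembled that of Ramp1 were Pmch and Chodl (Pearson r = 0.41 for each), Nxph1 and Gabrg1 (0.33 for each) and Klhl13 (0.32). Within the 68 Pmch cells r was -0.17 for Pmch, 0.19 for Chodl, 0.35 for Nxph1, 0.42 for Gabrg1 and 0.13 for Klhl13. These values are descriptions across cells that share plates and depth. Within the class r was thus highest for Gabrg1, a GABA-A receptor subunit, and Nxph1, a secreted partner of neurexins, and below 0 for Pmch itself.

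Ramp2, the adrenomedullin receptor's partner, was low in all classes and highest in GABA cells. It ran from 0 (6 of 16 plates) through a median of 5.11 to 19.999 CPM in GABA cells, from 0 (7 of 10 plates) to 20.7 CPM in other cells, from 0 (10 of 13 plates) to 4.74 CPM in Pmch cells and from 0 through 1.06 to 2.87 CPM in Hcrt cells, so all classes overlapped. It was 2.35 ± 0.68 (log2, SE) higher in GABA than in Hcrt cells (edgeR adjusted p = 0.00656, higher on 10 and lower on 4 of 16 plates). The call against the Pmch class (edgeR log2 change 2.59 ± 0.96, adjusted p = 0.0454) rested on 3 UMIs in Pmch cells and was lost without any 1 of 11 plates. GABA and other cells were not separated (edgeR log2 change 0.82 ± 0.86, adjusted p = 0.7). A Ramp2 UMI was found in 29 of 327 GABA cells (8.87%), 7 of 71 other cells (9.86%), 3 of 68 Pmch cells (4.41%) and 27 of 1065 Hcrt cells (2.54%).

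Ramp2 is known for its high level in endothelial cells, so the endothelial markers (8 genes, Cldn5, Pecam1 and others) were read beside it. At least 1 endothelial UMI was found in 5 of 29 GABA cells with Ramp2, a summed 6.64 CPM, and in 37 of 298 without (12.4%, 5.28 CPM). In the Hcrt class, 5 of 27 cells with Ramp2 had endothelial UMIs at a summed 39.0 CPM, against 234 of 1038 cells (22.5%) at 6.46 CPM among those without. The 7 other cells with Ramp2 had no endothelial UMI. The 6 oligodendrocyte markers were at 10517 CPM in them, against 90.7 CPM in other cells without Ramp2. Only 4 of the 7 had a UMI of these markers, against 40 of 64 (62.5%) without Ramp2. In cells with and without Ramp2 the same markers were at 81.9 and 214 CPM in GABA, 56.4 and 396 in Hcrt, and 47.2 and 31.5 in Pmch cells. The part of these cell types in the Ramp2 counts was not tested. Over all kept cells Itm2a was the gene most like Ramp2 (r = 0.24). Within the classes the r of Itm2a with Ramp2 was 0.43 in Hcrt, 0.14 in GABA, -0.05 in other and -0.07 in Pmch cells.

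Ramp3, the partner that gives Calcr or Calcrl an amylin or adrenomedullin profile, had most of its UMIs in the Hcrt class. There were 332 (90.0% of the total) in 98 of 1065 cells (9.20%, exact interval 7.53 to 11.1). That class also held 69.4% of the kept cells and 53700608 of their 69702601 UMIs. Ramp3 was found in 6 of 327 GABA cells (1.83%, 0.676 to 3.95), 2 of 71 other cells (2.82%, 0.343 to 9.81) and 4 of 68 Pmch cells (5.88%, 1.63 to 14.4). The intervals of other and Pmch cells overlapped that of Hcrt cells. After thinning it was in 1.67% of GABA, 2.57% of other, 1.58% of Pmch and 5.33% of Hcrt cells. Plates ran from 0 (10 of 16) to 63.3 CPM in GABA cells, from 0 (8 of 10) to 10.1 CPM in other cells, from 0 (11 of 13) to 5.81 CPM in Pmch cells and from 0.915 through 5.97 to 14.3 CPM in Hcrt cells. The Hcrt plates were narrow and never at 0, while most plates of the other classes had no count and 2 GABA plates exceeded all Hcrt plates. The Hcrt sums held 26 to 80 cells each, against at most 48 in GABA, 11 in other and 8 in Pmch sums.

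Ramp3 was called 3.67 ± 0.90 lower in Pmch than in Hcrt cells (edgeR log2 change -3.67, adjusted p = 0.00124, lower on 12 of 13 plates). Only Hcrt cells held enough Ramp3 UMIs to reach the count limit of the fit by themselves. Pmch cells held 7 UMIs against 332 in Hcrt cells, so a lower value was nearly the only outcome open to that pair. Pooled over all cells, the Pmch level was 0.259 times the Hcrt level (exact counting interval 0.103 to 0.539), a smaller difference than in the fit. Ramp3 was also called lower in GABA than in Hcrt cells (edgeR log2 change -1.87 ± 0.64, adjusted p = 0.0226, lower on 13 of 16 plates). That call did not hold with DESeq2 (log2 change -1.56, adjusted p = 0.131), without the plate block (-1.17, adjusted p = 0.1) or without plate replicate 3, 4, 9, 14 or 15. The plate mean was 7.46 ± 18.3 CPM in GABA and 6.11 ± 3.395 in Hcrt cells (SD, n = 16 and 19), since 1 cell each put plate replicates 2 and 5 at 63.3 and 43.0 CPM in the GABA class.

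Calcb, the beta-CGRP gene, was a gene of the Hcrt class, which held 1093 of its 1101 UMIs (99.3%) beside 69.4% of the kept cells. Its Hcrt plates ran from 5.35 through a median of 16.8 to 45.8 CPM. GABA plates ran from 0 (14 of 16) to 5.30 CPM, all 10 plates of the other class were at 0, and Pmch plates ran from 0 (12 of 13) to 2.13 CPM, so no plate of another class reached the lowest Hcrt plate. Calcb was 5.23 ± 0.59 lower in GABA than in Hcrt cells (edgeR log2 change -5.23, adjusted p = 5.2e-11, lower on 16 of 16 plates). Against Hcrt cells, Pmch cells with a single UMI had 0.0112 times the level (exact counting interval 0.000284 to 0.0627, edgeR adjusted p = 3.1e-08, lower on 13 of 13 plates). Other cells, with no UMI, were at least 12.9-fold lower by the 3-UMI floor (edgeR adjusted p = 4.3e-05, lower on 10 of 10 plates). Calcb passed the limit on low counts by its Hcrt counts alone, so a difference from the other classes was the only outcome open to it.

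Calcb marked a minority of Hcrt cells. A UMI was found in 162 of 1065 (15.2%, exact interval 13.1 to 17.5, 11.9% after thinning), and the share per plate ran from 3.23% through a median of 13.5% to 28.8%. Of these cells 53 had 1 or 2 UMIs and the others at least 3, 33 had at least 10, and the richest had 51. In the other classes 3 of 327 GABA cells, 0 of 71 other cells and 1 of 68 Pmch cells had a UMI.

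Calca, from which calcitonin and alpha-CGRP are made, was sparse. It was found in 6 of 327 GABA cells (24 UMIs), 1 of 71 other cells (2 UMIs), 0 of 68 Pmch cells and 39 of 1065 Hcrt cells (3.66%, at a pooled 1.92 CPM). GABA plates ran from 0 (11 of 16) to 11.9 CPM and Hcrt plates from 0 (2 of 19) through 1.70 to 4.96 CPM, and the pair did not differ beyond their spread (edgeR log2 change -1.05 ± 0.75, adjusted p = 0.834). Pmch cells were at least 2.80-fold lower than Hcrt cells by the 3-UMI floor (edgeR adjusted p = 0.00544), where a lower value was the only outcome open to a gene that passed the limit on low counts by its Hcrt counts, and the call was lost with sums of at least 5 cells (adjusted p = 0.129) and with a peptide limit of 0.2% (adjusted p = 0.0888). Although Calca and Calcb are alike in sequence and share a chromosome, they did not meet in the same cells more often than apart: Calca was in 6 of 162 Hcrt cells with Calcb (3.70%) and in 33 of 903 without (3.65%).

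Over the 6 class comparisons, 18 of 36 tests of the members passed. Between GABA and Hcrt cells 2 of 6 were called higher and 3 lower, where 8.48% and 15.1% of all genes were. Between Pmch and Hcrt cells 1 was higher and 3 lower (6.5% and 15.4% of all genes), and between GABA and Pmch cells 2 were higher and 1 lower (12.2% and 8.1%). In each of the other 3 comparisons 1 was higher and 1 lower, beside 3.03% and 2.52% of all genes for GABA against other, 4.55% and 11.3% for other against Hcrt, and 6.47% and 6.79% for other against Pmch. The members that passed the limit on low counts include some that passed through 1 class, so these counts only describe where the genes lie. Comparisons that involve the same class share its plates.

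The receptors and the RAMPs were rarely found in the same cell, although amylin and CGRP receptors need both. Of the 118 GABA cells with Calcr, 1 had Ramp1, 9 had Ramp2 and 2 had Ramp3, which makes 12 with any RAMP (10.2%, exact interval 5.37 to 17.1). Among the 209 GABA cells with no Calcr UMI, 28 had a RAMP (13.4%, 9.09 to 18.8), at a lower median depth of 23178 UMIs against 28389 in the Calcr cells. After thinning, the shares were 6.95% of Calcr cells and 9.63% of Calcr-zero cells, and with at least 2 UMIs asked of each gene they were 2.97% and 7.52%. These are shares of cells from shared plates, and their difference was not tested.

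The reverse was seen in peptide neurons, which had RAMPs without a receptor. In the Pmch class 44 of 68 cells (64.7%) had a RAMP, and 43 of these had no UMI of Calcr or Calcrl. The exception was 1 cell with Calcrl and Ramp1, the pair of the CGRP receptor. In the Hcrt class 212 of 1065 cells (19.9%) had a RAMP, of which 207 had no receptor UMI and 5 had one. Of the 11 Hcrt cells with Calcrl, 1 had Ramp1 and 2 had Ramp3, and of the 22 with Calcr, 3 had a RAMP (13.6%), against 209 of 1043 without Calcr (20.04%). In the GABA class all but 12 of the 118 receptor cells were without a RAMP UMI, 28 cells had a RAMP without a receptor, and 181 had neither. Counts of 1 UMI are common for these genes, so a cell without a UMI cannot be taken to lack the transcript.

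**Figure D3:**
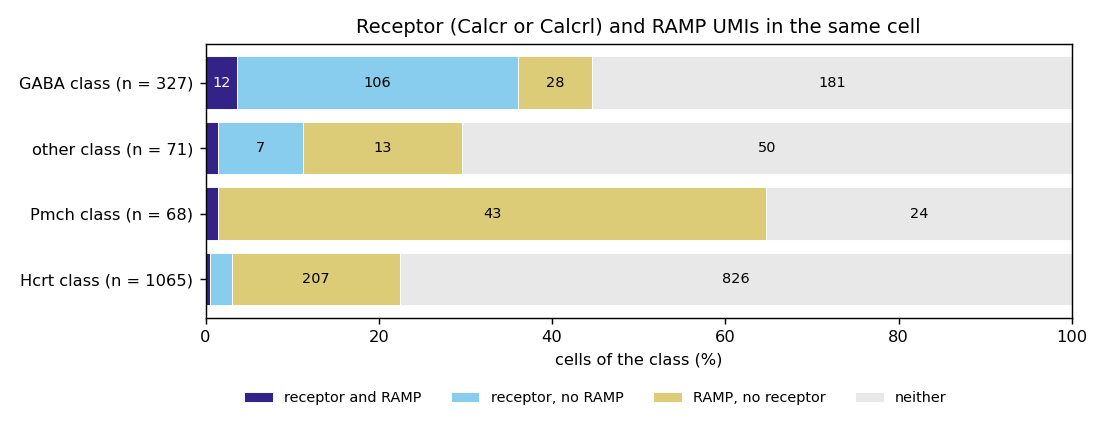
Share of cells of each class (percent, linear axis) with UMIs of a receptor and a RAMP, a receptor only, a RAMP only, or neither; numbers are cells and are left out for narrow segments. GABA cells have a wide receptor-only segment (the 118 Calcr cells less 12), Pmch cells a wide RAMP-only segment (43 of 68), and the segment with both is narrow in each class.

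Members also met each other unevenly within the Hcrt class. Ramp3 was found in 37 of 126 Hcrt cells with Ramp1 (29.4%, exact interval 21.6 to 38.1) and in 61 of 939 without (6.50%, 5.01 to 8.27). The Ramp1 cells were deeper, with a median of 59258 UMIs against 42558, and after thinning the shares were 17.1% of Ramp1 cells and 4.35% of the rest. Among Hcrt cells with Calcb, 27 of 162 had Ramp1 (16.7%) against 99 of 903 without Calcb (10.96%), and after thinning 8.90% against 7.55%. For Ramp3 beside Calcb the shares were 10.5% against 8.97%, and 4.61% against 5.43% after thinning. In the Pmch class Ramp3 was found in 2 of 42 cells with Ramp1 and 2 of 26 without. These are shares of cells from shared plates and were not tested.

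**Figure D4:**
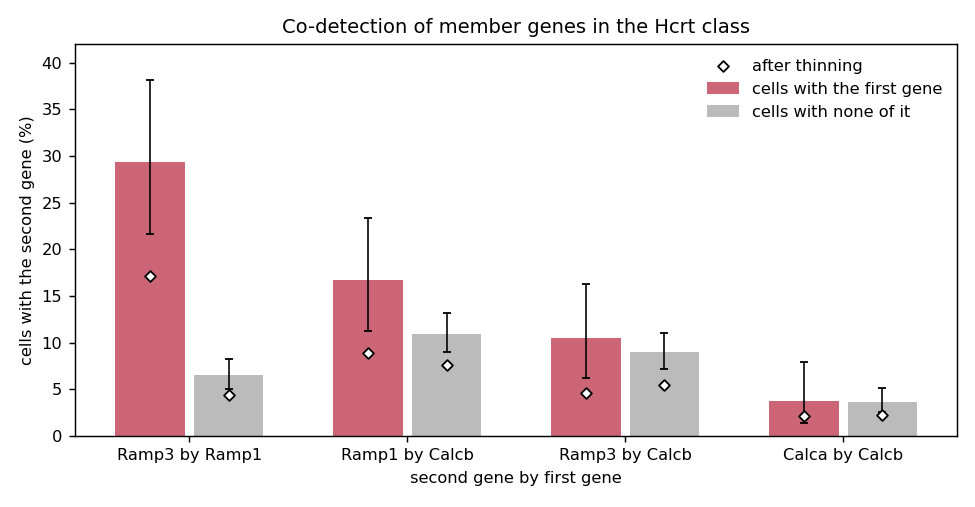
Share of Hcrt cells (percent, linear axis from 0) with a second gene among cells with the first gene and among cells with none of it, with exact 95% intervals for counting error. Diamonds give the shares after thinning to 18000 UMIs, with shallower cells left out. Only the Ramp3 by Ramp1 pair shows bars whose intervals do not overlap (29.4% and 6.50%).

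Hcrt cells with Ramp1 or Ramp3 differed from other Hcrt cells in several shared genes, in comparisons added after the data were seen. Hcrt cells with at least 3 Ramp1 UMIs (65 cells) were set against Hcrt cells with none (859 cells) on 17 plates, where 0.268% of 14547 genes were higher and 6.12% lower around a median log2 change of -0.38. Ramp3 was higher in the Ramp1 cells, at 23.3 ± 37.3 CPM against 3.89 ± 2.00 (SD, n = 17 plates, edgeR log2 change 1.83 ± 0.52, adjusted p = 0.0198, higher on 11 of 17 plates). Ramp2 had no UMI in the Ramp1 cells and 47 in the others, and since those 47 alone brought it over the limit on low counts, no test is given. Nts, the neurotensin precursor, averaged 372 CPM against 100.6 (1.72 ± 0.38, edgeR adjusted p = 0.0133), and Tgfb2 (1.97), S100a11 (1.63), Sgk1 (1.52), Cbln2, a synapse organizer (1.31), Adamtsl1 (1.07) and Mgst3 (1.05) were the other increases named by the rule. With at least 5 Ramp1 UMIs, which left 27 cells on 8 plates, Cbln2 and Mgst3 passed, while Ramp3 (1.75, edgeR adjusted p = 0.243), Nts (2.42, 0.141), Tgfb2 (1.25, 0.469), S100a11 (1.39, 0.161), Sgk1 (1.53, 0.151) and Adamtsl1 (1.17, 0.241) did not. Adamtsl1 was also lost without 5 of the 17 plates, each left out in turn (adjusted p of up to 0.0648). Car8 (-4.63), Lypd1 (-3.75), Rprm (-3.54), Fxyd7 (-3.54) and Ptprd (-3.21) were lower, as were the oligodendrocyte genes Mobp (3 UMIs in Ramp1 cells) and Mag (-3.51). Rprm had 35 UMIs in Ramp1 cells and the others 3 to 19. All but Rprm thus passed the limit on low counts by their counts in cells with no Ramp1 UMI. A lower value was the only outcome open to those genes.

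Hcrt cells with at least 3 Ramp3 UMIs (40 cells) were set against those with none (711 cells) on 15 plates, where 0.2% of 14015 genes were higher and 6.98% lower around a median of -0.45. Nts (1.86), S100a11 (1.70), Cbln2 (1.43) and Mgst3 (1.09) were again higher, with Adamts8 (1.68), Dgkk (1.06), Spock3 (0.94) and Ptn, pleiotrophin (0.88). With at least 5 Ramp3 UMIs, which left 9 cells on 3 plates, Nts was the only one of these 8 to pass. Leaving out single plates lost Adamts8 for 8 and Spock3 for 10 of the 15 plates. Ramp1 did not pass (edgeR log2 change 0.80, adjusted p = 0.45). The Ramp1 and Ramp3 cells overlap and are set against many of the same cells, so the 2 comparisons are not independent. The cells with a RAMP were deeper (median 63553 against 42392 UMIs for Ramp1, 83868 against 48563 for Ramp3), and the summed oligodendrocyte markers were at 50.6 CPM in Ramp1 cells and 50.5 CPM in Ramp3 cells, against 450 and 440 CPM in the cells without. Their part in these differences was not tested.

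Calcb was also read beside the RAMPs. Calcb was lower in cells with at least 3 Ramp1 UMIs (7.02 CPM against 19.1, edgeR log2 change -1.84 ± 0.49, adjusted p = 0.0122) and with at least 3 Ramp3 UMIs (13.3 CPM against 19.4, -2.13 ± 0.61, adjusted p = 0.0198), but did not pass at other limits. With at least 1 UMI the log2 changes were 0.00 for Ramp1 (edgeR adjusted p = 1) and -0.76 for Ramp3 (0.527), and with at least 5 UMIs, in 27 and 9 cells, they were -1.57 (0.252) and -2.87 (0.803). Hcrt cells with at least 3 Calcb UMIs (against 873 cells with none, on 18 plates) had few differences: 0.0203% of 14747 genes were higher and 0.21% lower around a median of -0.28. The 3 higher genes were Anxa2 (1.93), Bdnf, the growth factor (260 ± 126 CPM against 133 ± 39.0, edgeR log2 change 0.83 ± 0.16, adjusted p = 0.0331), and Vim (0.64), and Tmem114 was lower on 18 of 18 plates (-1.25 ± 0.22, edgeR adjusted p = 0.00657). None of these 4 passed at a limit of 1 Calcb UMI (edgeR adjusted p of 0.149 for Anxa2, 0.175 for Bdnf, 0.131 for Vim and 0.131 for Tmem114). At 5 UMIs Anxa2 and Tmem114 passed and Bdnf (0.0615) and Vim (0.0747) did not, and Bdnf did not pass in cells of at least 18000 UMIs (0.0741). Leaving out single plates lost Anxa2 for 7, Bdnf for 5 and Vim for 9 of the 18 plates.

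Calcr-expressing GABA cells were then set against GABA cells without Calcr, which shows what else these receptor cells express. Cells with at least 3 Calcr UMIs (85 cells) were compared with cells with none (206 cells) on the 14 plates with at least 2 of each, and Calcr itself, which made the split, was not tested. Of 11559 genes, 179 were higher (1.55%) and 385 lower (3.33%), around a median log2 change of -0.19, and the Calcr cells were deeper (median 32790 UMIs against 23249). With both sides limited to cells of at least 18000 UMIs, a limit chosen after the data were seen, 443 genes passed, and 392 of the 564 were among them in the same direction.

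The Calcr cells expressed more of the melanocortin receptors and of the peptide Nts. Mc4r, the melanocortin receptor on which AGRP acts as an antagonist, averaged 156 ± 67.2 CPM in Calcr cells and 20.7 ± 26.3 in Calcr-zero cells (SD, n = 14 plates), a log2 change of 3.12 ± 0.52 (edgeR adjusted p = 0.000439, higher on 13 of 14 plates). Mc3r, the other central melanocortin receptor, averaged 64.2 CPM against 14.8 (edgeR log2 change 1.90 ± 0.49, adjusted p = 0.00746). Nts, the neurotensin precursor, averaged 5767 ± 963 CPM against 987 ± 779 (edgeR log2 change 2.77 ± 0.38, adjusted p = 0.000445, higher on 14 of 14 plates). Asb4, a ubiquitin ligase adaptor of feeding-related hypothalamic neurons, averaged 445 ± 113.1 CPM against 111.04 ± 68.5 (edgeR log2 change 1.96 ± 0.22, adjusted p = 1.9e-07). By share of cells, 64.8% of 91 Calcr cells and 23 of 209 Calcr-zero cells had Mc4r, 92.3% and 36.4% had Asb4, and 100% and 53.1% had Nts.

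Among the 8 largest increases beside Mc4r and Nts were Col24a1, a fibrillar collagen (4.37 ± 1.00), Tnfaip8l3 (3.35 ± 0.88), Dcxr, a carbonyl reductase (3.20 ± 0.68), Acvr1c, the activin receptor ALK7 (3.16 ± 0.51), Tmem114 (3.02 ± 0.33) and Mt2, a metallothionein (2.80 ± 0.35), with edgeR adjusted p-values of at most 0.00955. Col24a1, Tnfaip8l3 and Dcxr had 17, 18 and 24 UMIs in Calcr-zero cells. These genes passed the limit on low counts by their counts in Calcr cells, so a higher value was the only outcome open to them. The 8 largest decreases were of genes nearly missing from Calcr cells. Gsta4, Npas1, Lhx1os and Spon1 had no UMI there and were at least 42.1-fold, 36.7-fold, 31.6-fold and 34.7-fold lower by the 3-UMI floor. Fgf9, Col11a1, Foxp2 and Slc18a2, the vesicular monoamine transporter gene, had 1 UMI each, which is 0.00738, 0.00843, 0.00942 and 0.0149 times the level in Calcr-zero cells. All 8 passed the limit on low counts by their counts in Calcr-zero cells, so a lower value was the only outcome open to them. Slc32a1, the GABA transporter of synaptic vesicles, did not pass (log2 change -0.47 ± 0.35, edgeR adjusted p = 0.584), and Gad1 and Gad2, whose counts chose the class, are not tested here.

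**Figure D5:**
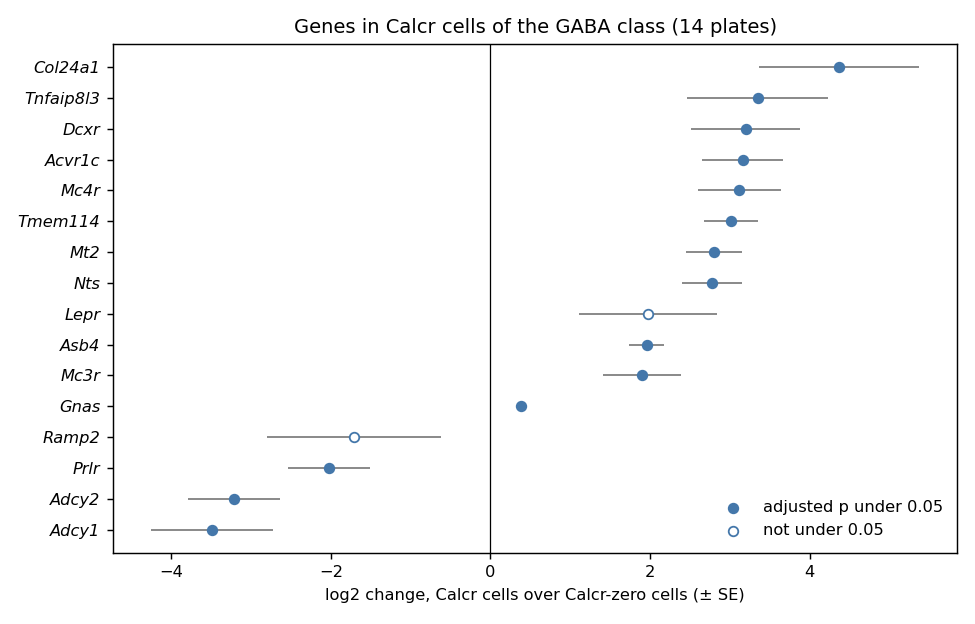
Log2 change (linear axis, ± SE) of genes named in the text in GABA cells with at least 3 Calcr UMIs over GABA cells with none, summed per plate on 14 plates; filled points passed an adjusted p of 0.05, and genes with 3 UMIs or fewer on either side are left out. Mc4r, Asb4, Mc3r and Nts lie to the right of 0 and Adcy1, Adcy2 and Prlr to the left, while Lepr and Ramp2 did not pass. Adcy1 and Adcy2 passed the limit on low counts by their counts in cells with no Calcr UMI, so only a lower value was open to them.

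No RAMP passed the test in the Calcr cells. Ramp2, the only other member with enough counts for this fit, averaged 3.75 ± 7.58 CPM in Calcr cells and 9.20 ± 12.3 in Calcr-zero cells, a log2 change of -1.71 ± 1.09 that did not pass (edgeR adjusted p = 0.498). The genes most like Calcr over the 327 GABA cells were Nts (Pearson r = 0.65), Cartpt and Serpine2 (0.56 for each), Serpina3n (0.54), Cpne8 and Mt1 (0.53 for each), Mt2 (0.51) and Crem (0.50), given as descriptions over 9348 genes in cells that share plates. Cartpt encodes the CART peptide of feeding circuits and Crem a cAMP-responsive factor. The correlation of Calcr with the log of total UMIs in the same cells was 0.11.

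Both receptors signal mainly through Gs and cAMP, so a list of 25 genes of receptor component and G protein signalling was read in the same comparisons. Between GABA and Hcrt cells 8 were higher and 4 lower (8.48% and 15.1% of all genes), with a list median of 0.03 against -0.15 for all genes. Among the higher were Adcy2, an adenylyl cyclase (log2 change 4.44 ± 0.43), Arrb1, a beta-arrestin (1.25 ± 0.23), and Grk2, a receptor kinase (1.01 ± 0.21), and among the lower were Adcy8 (-4.57 ± 0.47) and Prkar1a, a regulatory subunit of protein kinase A (-0.94 ± 0.10), with edgeR adjusted p-values of at most 9.8e-05. Between Pmch and Hcrt cells 2 were higher and 9 lower (6.5% and 15.4% of all genes, median -0.43 against -0.37), and Gnas, the Gs alpha subunit gene, averaged 581 CPM in Pmch and 2147 in Hcrt cells (edgeR log2 change -2.04 ± 0.15, adjusted p = 2.4e-17). In Calcr cells against Calcr-zero cells 1 of 23 was higher and 2 were lower, where 1.55% and 3.33% of all genes were. The higher one was Gnas (3293 CPM against 2463, log2 change 0.39 ± 0.07, edgeR adjusted p = 5.4e-05, higher on 14 of 14 plates). The 2 lower ones were the cyclases Adcy1 (-3.49 ± 0.76, edgeR adjusted p = 0.000942) and Adcy2 (-3.22 ± 0.58, 6.35 CPM against 56.4, edgeR adjusted p = 2.8e-05). Adcy1 had 19 UMIs in Calcr cells against 187 in Calcr-zero cells, and Adcy2 had 26 against 308. Both passed the limit on low counts by their counts in Calcr-zero cells, so a lower value was the only outcome open to them. Crcp, which encodes the receptor component protein of CGRP signalling, did not pass in this comparison (log2 change -0.25, edgeR adjusted p = 0.857).

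Other listed genes of feeding circuits were, like Calcr, mostly higher in GABA than in Hcrt cells. The list held 12 genes, all receptors except the adaptor Asb4, and 11 were tested. Between GABA and Hcrt cells 9 were higher and 1 lower (median 4.94, with 8.48% of all genes higher and 15.1% lower), among them Mc4r (6.62 ± 0.46), Asb4 (6.72 ± 0.42), Npy2r (5.21 ± 0.46) and Lepr, the leptin receptor (4.39 ± 0.58), with Cckar the lower one (-4.11 ± 0.54, edgeR adjusted p for these of at most 5.7e-09). Against other cells 5 were higher and none lower (3.03% and 2.52% of all genes), and against Pmch cells 6 were higher and none lower (12.2% and 8.1%). Npy2r, Npy1r and Prlr were not among those 6, and these 3 were called higher in Pmch than in Hcrt cells, with Cckar lower (6.5% and 15.4% of all genes). Within the GABA class 3 of the list were higher in Calcr cells (the receptors Mc3r and Mc4r, and Asb4) and Prlr, the prolactin receptor, was lower (20.4 CPM against 54.0, log2 change -2.02 ± 0.52, edgeR adjusted p = 0.0072), while Lepr did not pass (1.98 ± 0.86, edgeR adjusted p = 0.216). Of 13 other class B receptors 5 were tested between classes: Adcyap1r1, the PACAP receptor, and Pth1r were higher and Crhr2 was lower in GABA than in Hcrt cells, and 0 of 4 passed in the Calcr comparison.

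The remaining ligands of these receptors were close to absent from the picked cells and were not tested. Adm, the adrenomedullin gene, had 1 UMI in GABA, 7 in other, 0 in Pmch and 10 in Hcrt cells. Adm2 had 3 UMIs and Iapp, the amylin gene, 3 UMIs in Hcrt cells, and Iapp had a further 1 in Pmch cells. Calcb was thus the only ligand gene of the family with a UMI in over 10% of the cells of a class.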

How the data were processed

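Counts per gene and well were deposited by the authors as whole numbers, with a table of wells that gives, per its header, well type, detected genes and the percent of counts on spike-ins (ERCC), which was used only to describe wells. Per the submitters' processing notes, bcl2fastq 2.20, cutadapt 2.1.0, STAR 2.7.5c, STARsolo 2.7.5c, Seurat 2.3.4 and R 3.4.3 were used on GRCm38. Annotation release, strand use and UMI collapsing are not given in the sources used here, and counts are called UMIs from the design of read 1. The design text states 135025 ± 38401 reads per cell.

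Of the gene identifiers, 99.6% were in GENCODE M21. Rows that name no mouse gene (3.35% of counts) were left out. Kept cells held 69702601 UMIs, and plates 1835641 to 5067927. The members and lists were chosen with earlier results of these data known. Cells were classed as in the text, wells were hand-filled and no doublet caller was run.

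Counts were summed per plate and class (at least 3 cells, 56 sums) and tested two-sided with edgeR 4.0.16 (TMM, robust quasi-likelihood, plate as block, limma 3.58.1, R 4.3.3) on genes with at least 30 UMIs and a UMI in at least 5 sums. Fold changes are relative to TMM and differ from ratios of CPM. The SE is the log2 change divided by the root of F, so it restates the test. Shares carry exact (Clopper-Pearson) 95% intervals, and intervals and floors cover counting error only. Named genes were the members, list genes that passed, the genes of highest r (8 for Calcr, 5 per RAMP) and, in the Calcr comparison, the 8 largest called changes each way at 20 CPM or more in the higher side. Alternatives covered normalization, filters, block, class limits, depth and DESeq2 1.42.0. On simulated sums, 55% of genes changed 2-fold and 89% changed 4-fold were recovered between GABA and Hcrt (7.1% of calls false), 46% and 85% between Pmch and Hcrt (18.6% false), and 32% and 78% in the Calcr comparison (1.79% false). Among the genes the naming rule picked, 1 is not reported here.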

Additional observations from a re-analysis of the deposited data

Results flagged for a closer look

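Among the plates of the other class, the highest Ramp2 level was 20.746 CPM, with the next at 10.09, and the highest Calca level was 8.555 CPM, with the other 9 plates at 0. Each stood far from its neighbour for a group of 10, but they rest on 5 Ramp2 UMIs and 2 Calca UMIs with most plates at 0. With a single plate above 0 the gap spans the whole range whatever its size, so the rate of about 1 in 20 groups that chance flags does not apply to such counts. Counts of the members were also found in wells outside the classes. Of 40 wells labelled empty, 1 held 10 Calcr UMIs, and that well held 100707 UMIs over 5682 genes, against a median of 197 UMIs in such wells. The 68 wells labelled qRNA, whose contents the labels do not state, held 28 UMIs of Ramp3 in 5 wells, 6 of Calcrl in 5 wells and 4 of Ramp1 in 4 wells. The 64 wells with spike-ins only held no UMI of a member. The 3 wells with at least 1% of counts in each of Hcrt and Pmch held 49 Ramp1 UMIs, in 2 of them, and 6 Calca UMIs, in 1.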

How the results depend on the processing

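Over the settings tried, 13 to 19 of the 36 member tests between classes passed, and 15 to 18 when 1 plate was left out, against 18. Calcr in GABA over Hcrt cells (6.17 to 6.49 without 1 plate), Ramp1 in Pmch over Hcrt cells (3.59 to 3.85) and Calcb in GABA over Hcrt cells (-6.26 to -4.84) passed under each setting run. For Calcb, which passed the limit on low counts by its Hcrt counts alone, no other direction was open. Plate was the replicate block. With no replicate block, calls numbered 2622 for GABA against other (893 with it), 5439 for Pmch against Hcrt (3533), 4727 for other against Hcrt (2553) and 3319 for other against Pmch (2136), and Ramp3 in GABA over Hcrt cells was -1.17 (adjusted p = 0.1).

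With filterByExpr, calls numbered 2386 for GABA against Hcrt (3797), 2109 for Pmch against Hcrt and 1557 for other against Hcrt. A peptide limit of 0.2% gave 2043 calls for GABA against Hcrt, 253 for GABA against other, 1555 for GABA against Pmch (3263), 1705 for Pmch against Hcrt, 1186 for other against Hcrt and 825 for other against Pmch. There Ramp2 was 2.36 and Ramp3 -1.94 in GABA over Hcrt, Calcr 1.98 and Ramp1 -2.62 in GABA over other, Ramp2 2.03 in GABA over Pmch and Calca -4.42 in Pmch over Hcrt cells, none of which passed, while Calcr in Pmch over Hcrt cells passed (0.0178; 0.0311 with only 2 classes in the fit). Sums of at least 5 cells gave 459, 2296 and 1228 calls for GABA against other, Pmch against Hcrt and other against Pmch, lost Calcr in GABA over other (1.54), Ramp2 in GABA over Pmch (4.09) and Calca in Pmch over Hcrt (-4.70), and turned Ramp1 in other over Hcrt to 0.10 (adjusted p = 0.939). With only 2 classes in the fit there were 170 calls for GABA against other and 519 for other against Pmch, and Ramp2 in GABA over Pmch was 1.92. That value was 2.14 with DESeq2 and 2.45 with at least 10 Gad UMIs, and did not pass in either. Ramp3 in GABA over Hcrt was -1.66 with RLE scaling and -1.56 with DESeq2, which gave no adjusted p for Calca in Pmch over Hcrt. Among neurons alone, Ramp1 in GABA over other was -1.90. For each of these the cause was not tested.

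Leaving out 1 plate gave -2.40 to -1.58 for Ramp3 in GABA over Hcrt, -3.24 to -1.99 for Ramp1 in GABA over other and 2.32 to 3.25 for Ramp2 in GABA over Pmch cells (lost without replicate 3, 4, 5, 6, 8, 11, 12, 13, 15, 18 or 19). The Calcr comparison called 461 to 588 genes without 1 plate and 392 to 783 under the other settings (564). Col24a1, Spon1 and Slc18a2 did not pass with DESeq2 (adjusted p = 0.0837, 0.0609 and 0.653) nor Mc4r at a limit of 5 Calcr UMIs (0.0535). Calcr cells with at least 2 UMIs of a RAMP made up 2.97%. Of the comparisons within the Hcrt class, that by Calcb called 7 genes at a limit of 1 UMI, 119 at 5 and 7 to 187 without 1 plate (34), by Ramp1 155 at 5 UMIs (930), and by Ramp3 17 at 5 UMIs, 665 in cells of at least 18000 UMIs and 651 to 928 without 1 plate (1006). Calcb in Ramp1 cells was 4.7e-05 at a limit of 1 UMI. The precision for Calcrl, Ramp2 and Calca is limited by their counts, with a median of 1 to 3.5 UMIs in the cells that had any.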
